A study of Mus musculus with 6 samples.

Results

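The clustered histone genes of the mouse were examined in RNA from undifferentiated spermatogonia, the cell population that contains the spermatogonial stem cells of the testis. They were taken as every gene name in the count files that began with Hist1h, Hist2h, Hist3h or Hist4h, leaving out pseudogene names ending in -ps. The rule found 68 of 53657 names: 6 H1, 19 H2A, 18 H2B, 12 H3 and 13 H4 genes. On the GRCm38 build 55 lay on chromosome 13, 10 on chromosome 3, 2 on chromosome 11 and 1 on chromosome 6.

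RNA came from 3 WT and 3 MUT mice, 1 library a mouse, 3 months after tamoxifen. All 6 mice carried Gfra1-creERT2, a tamoxifen-activated Cre under the control of the Gfra1 promoter, and a tdTomato reporter of Cre activity. MUT mice also carried the FR-Hras G12V allele, in which Cre exchanges the normal Hras sequence for the activating G12V form, and WT mice lacked it. Cells were sorted as tdTomato+ and MCAM-bright from mice of mixed genetic background; tdTomato marks cells in which Cre was active and their descendants. The libraries held between 22729292 and 23550433 counts. Hras was at 56.7 to 65.0 CPM (counts scaled to a common library total with edgeR's TMM factors) in WT and at 60.8 to 69.8 CPM in MUT, and since the allele changes the coding sequence rather than removing the gene, this level does not check the genotype. Mcam, the surface protein of the sort, which somatic cells also express, was at 655 ± 58.1 CPM in WT and 595 ± 57.3 CPM in MUT (SD, n = 3 each). Markers of other cells were also present. The summed level of 6 spermatid markers was 868 to 1473 CPM in WT and 600.4 to 1145 CPM in MUT, and was highest in WT 3 among WT and in MUT 3 among MUT. The sum of 5 macrophage markers was 616 to 1047 CPM in WT and 549 to 684 CPM in MUT, and that of 5 B and plasma cell markers 15.01 to 74.7 CPM in WT and 5.15 to 18.0 CPM in MUT; both were highest in WT 3. The sum of 6 Leydig cell markers was 67.2 CPM in MUT 3 and 12.9 to 21.05 CPM in the other libraries. No marker on these 4 lists was at 0 throughout. The reporter tdTomato was at 52.5 to 66.3 CPM over the 6 libraries. The sum of 10 undifferentiated spermatogonia markers was 2077 to 2649 CPM in WT and 2283 to 2698 CPM in MUT, lowest in WT 3 and MUT 3 of their groups. The sum of 5 differentiating spermatogonia markers was 606 to 671 CPM in WT and 696 to 844 CPM in MUT, without overlap. All 5 were fitted higher in MUT, and 0 were called at an FDR of 0.1 (edgeR). The part of these cells in the histone levels was not tested.

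Histones are the proteins around which DNA is wound: H2A, H2B, H3 and H4 form the core of the nucleosome, and H1 binds the linker DNA between nucleosomes. The clustered genes supply the bulk of new histones during S phase, and most of their mRNAs end not in a poly(A) tail but in a conserved stem-loop, which is bound by the stem-loop binding protein. A smaller set of unclustered histone genes, such as H3f3b, is transcribed through the whole cell cycle and makes ordinary polyadenylated mRNAs.

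The stem-loop is shown first because it decides how these mRNAs end, and the libraries were made from poly(A)-selected RNA. In the GENCODE M21 transcripts, a stem-loop of 16 bases (beginning with GG and ending with CC, 6 base pairs of which the innermost is T with A, a G-T pair allowed elsewhere, around a loop of 4 bases, on the transcript strand) was found in 46 of the 68 genes (67.6%), against 1047 of 21834 other protein-coding genes (4.80%). A transcript without a match lacked these letters within its annotated end, which says nothing of the mRNA in the cell. The following members carried the commonest forms. Capitals mark the stem-loop, and lower case marks 5 bases on each side (GENCODE M21, 5′ to 3′ on the gene's strand).

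Hist1h1c: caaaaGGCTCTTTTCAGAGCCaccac

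Hist1h2bj: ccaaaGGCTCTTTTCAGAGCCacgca

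Hist1h3a: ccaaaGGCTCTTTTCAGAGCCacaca

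Hist1h3c: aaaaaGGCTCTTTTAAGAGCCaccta

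Hist1h4c: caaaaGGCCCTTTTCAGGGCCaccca

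Hist1h4i: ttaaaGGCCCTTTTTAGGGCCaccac

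Hist1h4b: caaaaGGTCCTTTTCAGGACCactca

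The form seen in Hist1h1c, Hist1h2bj and Hist1h3a was shared by 26 members of the H1, H2A, H2B and H3 classes and by no H4 gene. The form of Hist1h4c was found in 7 members, all of them H4 genes, and that of Hist1h3c in 6 members. The forms of Hist1h4i and Hist1h4b were each found in 2 H4 genes. The annotation stopped within 60 bases after the stem-loop in 22 members and ran further past it in 24. It ended with the coding sequence in 14 members, and 8 had a 3′ UTR without the motif.

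Promoters (250 bases before to 50 after the RefSeq start, GRCm38.p6) were matched for 60 of the 68 genes. The promoter of Hist1h2bj, the H2B gene with the highest level per length, was at chr13:22042948-22043247 on the plus strand. It is shown because it spans the gap to its neighbour Hist1h2ag, an H2A gene read in the opposite direction. Capitals mark CCAAT and GGTCC words on either strand.

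Hist1h2bj promoter: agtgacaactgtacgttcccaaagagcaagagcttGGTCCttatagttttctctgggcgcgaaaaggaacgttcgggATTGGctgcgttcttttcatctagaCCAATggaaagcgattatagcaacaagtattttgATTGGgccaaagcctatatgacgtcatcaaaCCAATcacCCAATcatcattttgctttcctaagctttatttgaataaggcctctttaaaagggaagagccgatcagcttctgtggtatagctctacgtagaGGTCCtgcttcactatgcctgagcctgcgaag

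It held 5 CCAAT words, a sequence bound by the factor NF-Y. CCAAT was present on either strand in all 48 matched promoters of the H1, H2A, H2B and H3 classes but in 3 of 12 H4 promoters, against 37.4% of all 32851 RefSeq promoters. The octamer ATTTGCAT, the binding word of OCT factors, was found on either strand in 7 of 16 H2A and 6 of 16 H2B promoters and in none of the other classes, against 1.74% of all promoters. AAACACA on either strand was present in 5 of 6 H1 promoters (7.18% of all), and GGTCC in 11 of 12 H4 promoters (45.5% of all). TATAAA on the sense strand was found in 29 of the 60 promoters (48.3%, against 8.32%). Because facing genes share their promoter sequence, these promoters are not independent of each other.

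In these cells the clustered histone genes were a trace of the RNA counted. All 68 together drew 519, 478 and 675 counts in WT 1 to 3 and 501, 467 and 553 in MUT 1 to 3. This was 0.00200% to 0.00297% of a library. In WT 2 the share was 0.00203% with an exact 95% binomial interval of 0.00185% to 0.00222%, and in WT 3 it was 0.00297% with an interval of 0.00275% to 0.00320%. PCR duplicates could not be told apart, so such intervals cover counting error only. By comparison H3f3b, an unclustered H3 gene, had 9296 to 12878 counts in a library. In bulk RNA, fewer cells of a type and less RNA per cell cannot be told apart. No count was found for 10 members, 18 had 1 to 9 counts over the 6 libraries, and 40 had 10 or more. In no library did 28 members rise above 3 counts, the limit that a count of 0 allows (0.127 to 0.131 CPM).

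**Figure D1:**
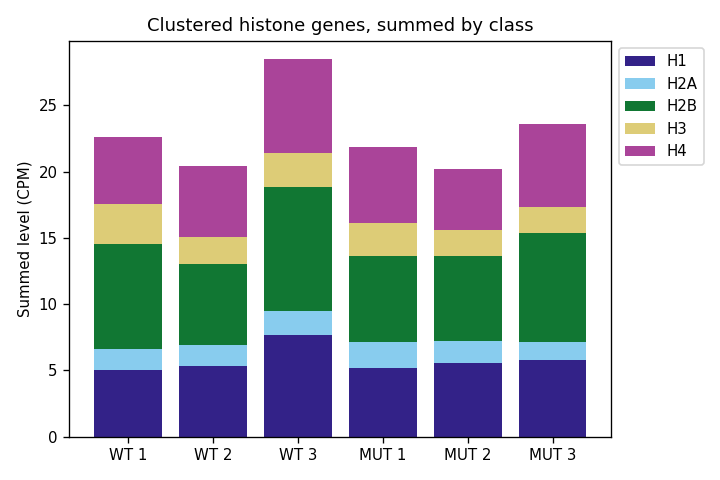
Summed level of the clustered histone genes in each library (CPM), stacked by class. WT 3 was highest at 28.5 CPM and MUT 2 lowest at 20.2 CPM, and H2B, H1 and H4 genes made up most of each bar.

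H2B genes gave 32.5% of all member counts, H1 genes 25.2%, H4 genes 24.9%, H3 genes 10.1% and H2A genes 7.27%. The 31 genes at chr13:23531050-23934851 gave 59.0% of the counts, and the 24 genes at chr13:21715763-22043676 gave 30.8%. The 3 genes with the most counts, Hist1h1c, Hist1h1a and Hist1h4i, held 32.2%.

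Per length, the highest level was that of Hist1h4i (3.00 CPM per kb of exon, mean of 6 libraries), followed by the H1 gene Hist1h1a at 2.98 and Hist1h2bj at 2.68 CPM per kb. Hist1h4i and Hist1h1a differed by less than their spread between libraries. The highest H3 gene was Hist1h3a at 1.92 CPM per kb. The highest H2A gene was Hist1h2aa, at 0.569 CPM per kb, beside the testis-specific H2B gene Hist1h2ba at 0.764 CPM per kb. Hist1h1t, which makes the linker histone of spermatocytes, was near the floor, with 1, 5 and 6 counts in WT and 4, 2 and 2 in MUT. The sum of 8 spermatocyte markers was 479 to 726 CPM in WT and 489 to 627 CPM in MUT. Whether the low count of Hist1h1t in poly(A)-selected RNA came from the selection or from few cells that express it was not tested. Away from chromosome 13, Hist3h2ba on chromosome 11 reached 0.701 CPM per kb, Hist2h2be on chromosome 3 reached 0.352, and Hist4h4 on chromosome 6 reached 0.0552.

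How much of a member can be counted depends in part on how much of it is its own. Fragments that mapped to several places were left out by the authors. Every 50-base stretch of each member, the length of a read, was therefore searched for in all other GENCODE M21 genes on either strand. Reads were paired, so a fragment can also be placed by its other read, and sequence outside annotated genes was not searched. The share of own stretches is thus not the exact countable part of a gene. In the 10 members without a count, at most 11.3% of stretches were found in no other gene, and in 5 of them none was. A stretch counted as shared also where the other gene overlapped the member at the same place, and the counts were made on an earlier GENCODE release, so the overlaps may differ from those at counting. This bears on Hist2h2bb, whose stretches all lay in an overlapping gene and none elsewhere, and on Hist2h3c1, of which 65.3% lay only in an overlapping gene and 34.7% elsewhere. The H3 genes Hist2h3c1 and Hist2h3b had 0 counts in every library and no stretch found in them alone, while Hist2h3c2, with 36.5% of its own, had 0, 4 and 5 counts in WT and 0 in all MUT libraries. In the 20 members with under 20% of their own, no gene passed 34 counts over the 6 libraries. Values of these near-identical genes are uncertain.

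**Figure D2:**
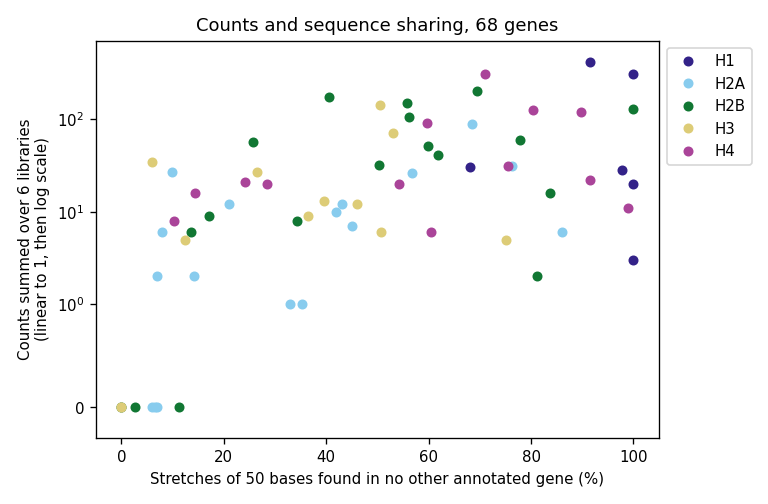
Counts summed over the 6 libraries (linear to 1, then log scale) against the share of 50-base stretches found in no other annotated gene (percent), for the 68 members coloured by class. The 10 members at 0 counts all lie at or below 11.3%, and the H1 genes lie at the right.

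Across the 68 members the share of own stretches and the counts had a Spearman rho of 0.600, and the share and the level per kb a rho of 0.413. The points share libraries and sequence families, and the values are a description. By 3′ end, the 24 members annotated past their stem-loop had a median of 27.5 counts and 75.3% of own stretches, and 8 of them passed the filter on low counts of the comparison between groups. The 22 whose annotation stopped at the stem-loop had a median of 12 counts and 36.9% of own stretches, with 4 past the filter. The 14 that ended with the coding sequence had a median of 7.5 counts and 15.7%, with 0 past it. The 8 with a 3′ UTR but no stem-loop had a median of 3 counts and 9.58%, and 3 of them, Hist1h1a, Hist1h2bc and Hist2h2be, were past it. How the end of the annotation and the shared sequence each bear on the counts cannot be told apart here. High sharing did not mark every low gene: Hist1h2ac had 85.9% of its own and 6 counts, and Hist1h1b had 100% and 3 counts.

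A further pattern lay in the facing H2A and H2B genes. There were 13 such pairs, with 175 to 305 bases between them. The H2B partner had the higher level per length in 9, the H2A partner in 2, and both were at 0 in the other 2. Hist1h2bj had 173 counts over the 6 libraries and its neighbour Hist1h2ag had 12. Hist1h2bc, an H2B gene, had 200 counts and its neighbour Hist1h2ac had 6, although Hist1h2ac had the larger share of own sequence (85.9% against 69.4%). The partner with more sequence of its own was the higher one in 7 of the 11 pairs with a count.

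**Figure D3:**
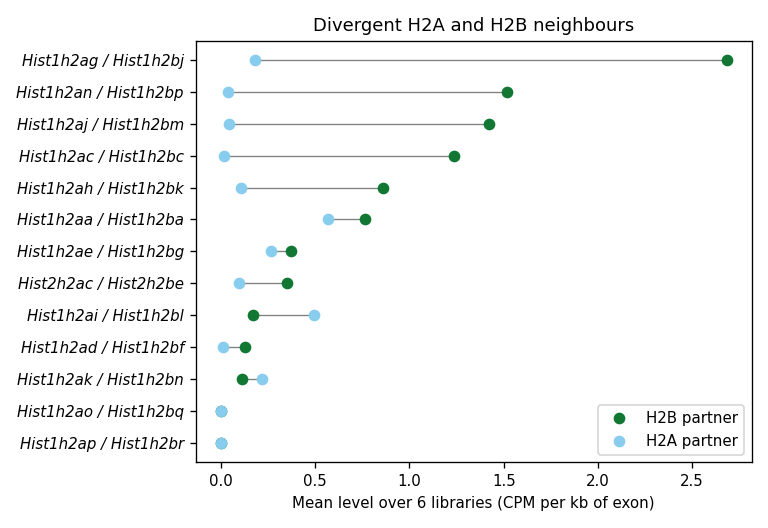
Mean level over 6 libraries (CPM per kb of exon) of the H2A and H2B partner of each facing pair, joined by a line. The H2B point lies to the right in 9 of 13 pairs, most widely for Hist1h2ag and Hist1h2bj (0.179 and 2.68).

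WT and MUT were then compared to ask whether Hras G12V went with a different level of the clustered histone RNA counted. In these poly(A)-selected libraries histone mRNA is measured only in part, and the comparison does not cover the rest. No clustered histone gene differed at an FDR of 0.1 (edgeR, quasi-likelihood test, p-values adjusted by Benjamini-Hochberg over all genes). The filter on low counts kept 15 of the 68 members, which held 77.7% of the member counts, and 0 of these 15 were called, against 2 of all 19656 genes (0.0102%). DESeq2 called 0 of 58 members with a count, against 0.0241% of all genes. At an unadjusted p under 0.05 edgeR and DESeq2 each had 1 member, where 2.78% and 1.18% of all genes passed. With the replicate number as a block, which raised the count over all genes to 13 (0.0661%), edgeR called 0 members, and DESeq2 with the block also called 0 (0.148% of all genes). Without the WT 3 and MUT 3 libraries edgeR called 2.33% of all genes and 0 members.

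Summed over all 68 genes, the level was 23.8 ± 4.17 CPM in WT and 21.9 ± 1.69 CPM in MUT (SD, n = 3 each), a log2 ratio of -0.12, and the groups overlapped. Without the WT 3 library the log2 ratio was 0.025, so its sign rested on that library. The median log2 fold change of the 15 tested members was -0.20. Over all genes tested it was 0.0066, and over genes in the members' range of counts it was -0.038. Of the 15 members 12 were below 0, against 48.2% of all genes. The groups overlapped in all 15 tested members, where 7.69% of all genes tested did not overlap, and without WT 3 the median of the same 15 members was -0.00065, with 8 below 0. Each of the 5 classes overlapped between groups: H1 genes were at 5.98 ± 1.44 CPM in WT and 5.53 ± 0.309 CPM in MUT, and H4 genes at 5.84 ± 1.08 and 5.54 ± 0.862 CPM.

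**Figure D4:**
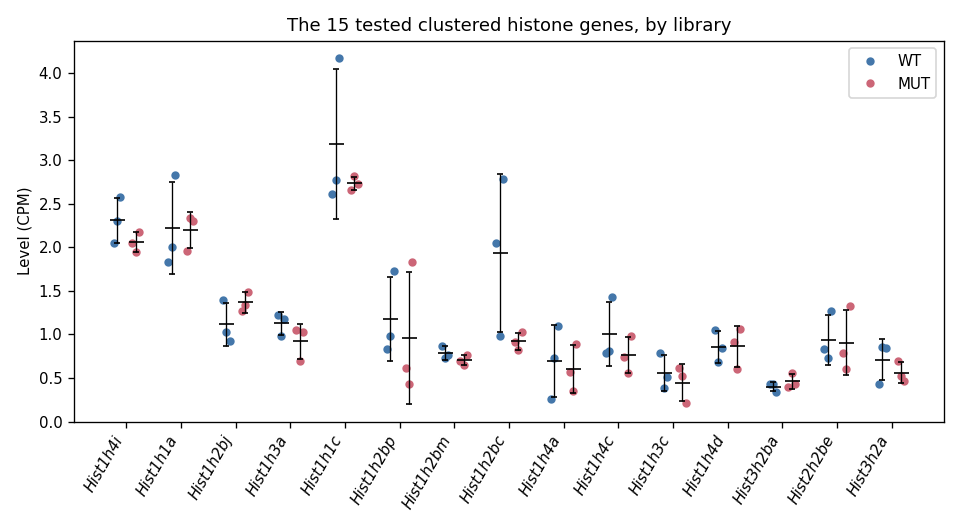
Level of the 15 tested members in each library (CPM); points are libraries, and bars give the group mean and SD (n = 3 each). WT 3 is the highest WT point for Hist1h1c (4.18 CPM) and Hist1h2bc (2.78 CPM), and the groups overlap for every gene.

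Hist1h2bc came nearest to a difference. Its levels were 2.05, 0.981 and 2.78 CPM in WT 1 to 3 and 0.917, 0.823 and 1.02 CPM in MUT 1 to 3. WT 2 lay within the MUT range, so the groups overlapped. The log2 fold change was -1.07 (SE 0.374, 95% interval -1.92 to -0.22), with an adjusted p = 0.998 (edgeR, Benjamini-Hochberg), and this was the member with an unadjusted p under 0.05. A two-sided exact permutation test gave p = 0.2, where 3 against 3 libraries cannot go below 0.1. Over 14 alternatives the adjusted p ran from 0.346 to 1.0. Without WT 3 the log2 fold change was -0.71, and the fold change was smaller than with any other library left out. The unadjusted threshold was missed without WT 3, without MUT 1, without MUT 2, without WT 3 and MUT 3 together, and with the replicate block in DESeq2. WT 3 was also the library with the highest spermatid, spermatocyte, macrophage and B and plasma cell marker sums. Their part in the result was not tested.

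Hist1h1c, a widely expressed linker histone, was at 2.62, 2.77 and 4.18 CPM in WT and at 2.66, 2.81 and 2.73 CPM in MUT. The WT 3 value alone stood above the MUT range. Its log2 fold change was -0.22 (95% interval -0.73 to 0.29), and 0.021 without WT 3. Hist1h1a was at 1.83, 2.01 and 2.83 CPM in WT and 1.96, 2.34 and 2.30 CPM in MUT, with a log2 fold change of -0.013 that turned to 0.20 without WT 3. Hist1h4i was at 2.05, 2.30 and 2.57 CPM in WT and 2.05, 1.95 and 2.18 CPM in MUT, which overlapped, with a log2 fold change of -0.17 (95% interval -0.61 to 0.27).

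Hist1h2bj had the highest fitted log2 fold change of the tested members, 0.29 (95% interval -0.27 to 0.86). Its levels were 1.40, 1.02 and 0.928 CPM in WT and 1.27, 1.34 and 1.49 CPM in MUT. The groups overlapped through WT 1. Hist1h2bp was at 0.829, 0.981 and 1.73 CPM in WT and at 0.611, 0.433 and 1.84 CPM in MUT. It was highest in WT 3 among WT and MUT 3 among MUT. The spermatid, spermatocyte, macrophage, B and plasma cell and Leydig cell marker sums were also highest in those libraries of their groups. The part of those cells in its level was not tested. Hist2h2be, an H2B gene known for polyadenylated mRNA in non-dividing cells, was likewise highest in WT 3 at 1.27 CPM and MUT 3 at 1.32 CPM. Its log2 fold change was -0.054, and 0.22 without WT 3.

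The groups also overlapped in the following members. Hist1h3a, an H3 gene, was at 1.22, 0.981 and 1.18 CPM in WT and 1.05, 0.693 and 1.02 CPM in MUT. Hist1h3c was at 0.785, 0.384 and 0.506 CPM in WT and 0.611, 0.520 and 0.213 CPM in MUT. The fitted log2 fold changes of these H3 genes were -0.29 and -0.32. Of the H4 genes, Hist1h4c was at 0.785, 0.811 and 1.43 CPM in WT and 0.742, 0.563 and 0.981 CPM in MUT. Hist1h4a was at 0.262, 0.725 and 1.10 CPM in WT and 0.567, 0.346 and 0.896 CPM in MUT, and both H4 genes were highest in WT 3 and MUT 3 of their groups. Hist1h2bm, an H2B gene, ran from 0.725 to 0.873 CPM in WT and from 0.650 to 0.768 CPM in MUT. Hist1h2bk, below the filter, had 6, 6 and 10 counts in WT and 18, 10 and 7 in MUT. On chromosome 11, the H2A gene Hist3h2a was at 0.436, 0.853 and 0.844 CPM in WT and 0.698, 0.520 and 0.469 CPM in MUT, and its neighbour Hist3h2ba, an H2B gene, was at 0.436, 0.427 and 0.337 CPM in WT and 0.393, 0.563 and 0.427 CPM in MUT. The fitted values of this pair had opposite signs, -0.34 and 0.20, with 95% intervals of -1.15 to 0.47 and -0.56 to 0.97.

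**Figure D5:**
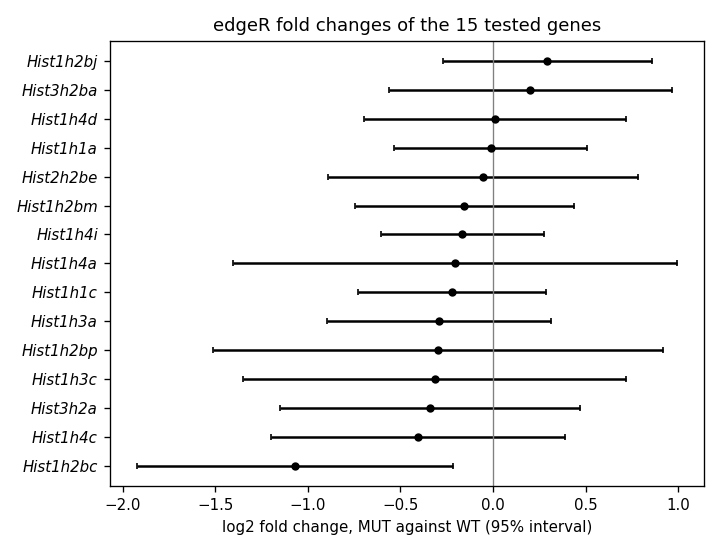
Log2 fold change of MUT against WT for the 15 tested members, with the 95% interval from edgeR. The interval of Hist1h2bc (-1.92 to -0.22) is the one that leaves out 0, without passing the adjusted threshold.

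The whole 95% interval lay within 1 log2 unit of 0 for 9 of the 15 members, against 52.8% of the 5703 genes in the same range of counts. For the other 6 the interval reached past 1 log2 unit. Its width did not follow the counts alone: Hist1h2bp, with 150 counts over the 6 libraries, had an SE of 0.531, and Hist1h3a, with 143, had an SE of 0.264. Among members below the filter, Hist1h3e had 3, 3 and 4 counts in WT and 6, 6 and 5 in MUT. Hist1h4b had 2, 2 and 1 in WT and 5, 3 and 8 in MUT. These were the 2 members, of 58 with a count, whose groups did not overlap, both higher in MUT. Of all genes with a count, 4.19% were so. Both members sat near the limit of 3 counts.

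No gene on the lists that surround histone supply was called. Of 16 tested replication-independent histone genes, 0 were called and 0 had an unadjusted p under 0.05, where 2.78% of all genes did. With the replicate block in edgeR 0 were called and 3 had an unadjusted p under 0.05, all lower in MUT. The share of all genes under that threshold with the block is not given here, so the 3 have no background to be read against. H3f3b was at 470.4 ± 69.2 CPM in WT and 469.6 ± 43.2 CPM in MUT. The spermatid linker histone H1fnt was at 43.7, 33.3 and 50.8 CPM in WT and at 22.8, 22.7 and 43.7 CPM in MUT, and again highest in WT 3 and MUT 3 of their groups. Hils1, another linker histone of spermatids, was at 24.5, 22.3 and 37.4 CPM in WT and at 13.9, 14.5 and 30.6 CPM in MUT. H2afb1, an H2A variant gene, was at 7.50, 7.59 and 11.3 CPM in WT and at 3.88, 4.89 and 8.75 CPM in MUT. These were the 3 genes that passed the unadjusted threshold with the block, with log2 fold changes of -0.56, -0.57 and -0.64 and adjusted p = 0.238, 0.223 and 0.272 by edgeR. Each was lower in MUT in all 3 same-numbered pairs, which is no further support, as the fit with the block had picked them. The summed level of the spermatid markers was also lower in MUT in all 3 pairs. The part of spermatids in these values was not tested. Of 21 tested genes for transcription and 3′ processing of histone mRNA, 0 were called and 19 had a log2 fold change above 0, with a median of 0.050. Of 21 histone chaperone genes 0 were called, with a median of 0.034. Of 23 tested DNA replication genes 0 were called and 20 were above 0, with a median of 0.082. Over all genes tested 48.2% were below 0, and the median was 0.0066. The groups did not overlap in 1 replication gene with MUT higher and in 1 with MUT lower, where 7.69% of all genes tested did not overlap. The replication factor Gins3 was at 20.6 ± 1.22 CPM in WT and 24.1 ± 1.48 CPM in MUT, with an adjusted p = 0.998 by edgeR. The 14 listed short RNAs without a poly(A) tail summed to 8.49 to 11.01 CPM in a library, led by Rn7sk. What set this level was not tested. Over the 6 libraries, the 5 genes of 10583 above 10 CPM whose log2 level was most like the summed level of the clustered histone genes were Olfml3, Serpinb6a, Pea15a, Anxa5 and RP24-64D24.4, with a Pearson r of 0.994 to 0.976; they were picked as the highest of that many genes over 6 points, and the likeness is a description.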

How the data were processed

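RNA of sorted tdTomato+ MCAM-bright spermatogonia from 3 WT and 3 MUT mice was analysed. Per gene name, the authors deposited unnormalized fragment counts, made with featureCounts 1.6.2 from a poly(A)-selected stranded kit, counted without strand on a GENCODE annotation of GRCm38 with tdTomato added. Multi-mapping and ambiguous fragments were left out. STAR and FastQC are named in the submitters' processing notes; their versions are not given in the sources used here. Because the reads come from polyadenylated RNA and repeated sequence is not counted, the clustered genes are measured only in part. Groups and replicate numbers came from the labels.

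In R 4.3.3, edgeR 4.0.16 (TMM, filterByExpr, quasi-likelihood test, genotype as the only term, Benjamini-Hochberg adjustment, FDR 0.1) was fitted to all genes. Alternatives were DESeq2 1.42.0, limma 3.58.1 voom, DESeq2 size factors, no filter, an FDR of 0.05, a minimum of 10 counts per library, the replicate block and each library left out; leaving out WT 3 and MUT 3 was chosen after seeing the data. The edgeR step was tested on simulated data with the same spread for every gene and changes planted only in genes with more counts than most members. That test does not measure the power for the members. Deviations of same-numbered WT and MUT libraries from their group means correlated at 0.304, 0.156 and 0.395 over 10583 genes, each above 0.1. On that ground the numbers in the labels were taken to pair the samples. WT 2 correlated more with MUT 1, at 0.326, than with MUT 2, so the pairing is not clear-cut. The labels state no pairing. Deviations within a group depend on each other, so these correlations cannot decide it. Total counts ranged from 22729292 to 23550433, and a count of 0 allows 3.

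Members and gene lists were chosen with earlier results of these data known. Genes were named by rule: the 12 highest per length, the highest of each class and chromosome, a fixed set, members with an unadjusted p under 0.05, members whose groups did not overlap, and the extremes of fold change.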

Additional observations from a re-analysis of the deposited data

How the results depend on the processing

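No member was called under any alternative run. Over all genes, the count of 2 became 9 with DESeq2, 4 with limma voom, 5 without a filter, 0 with at least 10 counts in every sample, 13 with the replicate block in edgeR, 55 with it in DESeq2, 1 at an FDR of 0.05, 0 to 6 with a library left out, and 456 without WT 3 and MUT 3. Members at an unadjusted p under 0.05 numbered 3 without a filter, 0 with the replicate block in DESeq2, and 0 to 2 with a library left out. The median log2 fold change of members was 0.013 with DESeq2, 0.013 without a filter and 0.014 with the DESeq2 block, over 58 members in place of 15, and ran from -0.22 to -0.00065 with a library left out. The log2 ratio of the summed level ran from -0.22 (without WT 2) to 0.025 (without WT 3), and was -0.11 with the replicate block. The replicate block changed no call among the members at an FDR of 0.1.

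Of 126 alternative fold changes of 14 named members, 13 in 6 genes changed sign. With a library left out, Hist1h1a ran from -0.14 to 0.20 (above 0 without WT 3 or MUT 1), Hist1h1c from -0.35 to 0.021 (above 0 without WT 3), Hist1h2bp from -1.17 to 0.087 (above 0 without WT 3 or MUT 2), Hist1h3c from -0.61 to 0.021 (above 0 without MUT 3), Hist1h4a from -0.60 to 0.28 (above 0 without WT 3 or MUT 2) and Hist2h2be from -0.43 to 0.22 (above 0 without WT 3, MUT 1 or MUT 2). Without both WT 3 and MUT 3, Hist1h1a was 0.16 and Hist1h1c 0.019. The cause was not tested. The 28 members that never rose above 3 counts were not among the 15 that passed the edgeR filter. The 10 of them without a count could not be compared in any fit. The others entered DESeq2 at counts near the floor, so their values say little.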
